A study of Mus musculus with 6 samples.

Results

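In the lists of cleavage positions analysed here, each position carries a whole number from 0 to 10 in a column that the sources used here do not explain. The positions described are those with a value of 8, 9 or 10, called A-rich below for a reason read from the files themselves. Pooled over 6 libraries and outside chromosome M, they were 471627 of 2333467 distinct stranded positions, or 20.2%, with 215476 at value 8, 151070 at value 9 and 105081 at value 10. They held 17535918 reads, or 6.76% of all reads. They are set against the 300790 positions with a value of 0 to 2, which were 12.9% of positions and held 25.9% of reads. All libraries came from V6.5, a mouse embryonic stem cell line of the C57BL/6-129 strain, and were made by sequencing the 3′ ends of polyadenylated RNA. There were 2 libraries of cells given an antisense morpholino oligonucleotide (AMO) against U1, 2 of cells given a scrambled AMO and 2 of untreated cells, and the series describes each group as 2 biological replicates of this one line. The study asked how blocking U1 changes where transcripts end.

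Most mammalian transcripts end where the cleavage and polyadenylation machinery cuts the RNA a short way after a signal hexamer, of which AATAAA (written as DNA) is the commonest form and ATTAAA the next. A stretch rich in U or in G and U usually follows the cut and helps to place it. The U1 small nuclear ribonucleoprotein, known first for recognising 5′ splice sites, also suppresses cleavage at signals inside transcribed regions, and an AMO that covers its 5′ end lifts that suppression. In methods that copy RNA with an oligo(dT) primer, the primer can also anneal to A-rich stretches inside a transcript, which is why the base content after a position is commonly recorded. The labels do not spell out the reverse transcription oligo, and whether any position listed here arose from such priming was not tested.

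The value equals the number of As among the 20 bases that follow the position on the RNA strand. It was read from pairs of positions 1 nt apart and from the hexamers deposited for overlapping positions, since no genome of the build mm9 was at hand. Among 911613 such pairs, none had values that differed by more than 1. At 47843 pairs the base that leaves the window was known from a hexamer, at 32560 the base that enters it, and none contradicted a count of A over 20 bases. The same rule with C, G or T at the leaving edge was contradicted by 52.0%, 52.4% and 57.2% of pairs, and with the window moved 1 base in either direction by 24.9% and 16.9%. At 252894 positions at least 1 base of the window could be read, and the deposited value lay within the possible range at every one. The A-rich positions thus had 8 to 10 As in 20 bases (40% to 50%), no listed position had more than 10, and those of value 0 to 2 had at most 10% A.

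The windows below are partly readable examples of such positions. They were put together from deposited hexamers, 5′ to 3′, from the first base of the position's own hexamer to the last base of the window. Bases that no hexamer covers are written n, and capitals mark the As read within the window, the last 20 letters. No window could be read whole, so the most abundant positions with at least 12 of 20 bases readable are shown, 2 for each value and 2 of value 0 to 2 for comparison, a choice made after the data were seen. Coordinates are mm9 and 1-based.
chr8:34730248-34730288 on the plus strand, value 8: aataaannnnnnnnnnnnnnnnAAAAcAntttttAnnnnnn
chr8:34730248-34730289 on the plus strand, value 8: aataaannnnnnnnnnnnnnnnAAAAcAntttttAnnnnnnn
chr1:78703524-78703569 on the plus strand, value 9: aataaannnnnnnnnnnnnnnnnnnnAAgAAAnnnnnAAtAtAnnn
chr11:70756587-70756627 on the minus strand, value 9: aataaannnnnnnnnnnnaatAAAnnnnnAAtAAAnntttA
chr6:86474511-86474553 on the minus strand, value 10: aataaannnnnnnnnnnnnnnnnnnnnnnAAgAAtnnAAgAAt
chr16:23114002-23114043 on the minus strand, value 10: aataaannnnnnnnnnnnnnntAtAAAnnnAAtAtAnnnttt
chr11:106110434-106110474 on the plus strand, value 2: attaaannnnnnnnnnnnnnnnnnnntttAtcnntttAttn
chr11:51417971-51418013 on the minus strand, value 2: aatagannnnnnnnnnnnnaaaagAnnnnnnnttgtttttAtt

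Each of the 6 A-rich examples lay downstream of an AATAAA and had a run of As, or a further A-rich hexamer, inside its window. Window bases are readable only where a deposited hexamer covers them. The bound of 12 readable bases therefore selects windows that hold further hexamers, and such content is no finding about the class. The pair on chromosome 8 lies at adjacent bases and shares most of its window. In CPM, reads scaled to the library total outside chromosome M, its first position stood at 74.5 and 95.3 CPM in the U1 AMO pair, 82.0 and 79.0 CPM in the pair with scrambled AMO and 43.0 and 24.2 CPM in the untreated pair. All 4 AMO libraries were above both untreated libraries there. The value 10 position on chromosome 6, at 86474531, stood at 28.4 and 48.5 CPM in the U1 AMO pair, 32.1 and 42.3 CPM in the pair with scrambled AMO and 34.8 and 58.9 CPM in the untreated pair, so the 3 groups overlapped. Both examples of value 2 had a T-rich window and were rarer than the A-rich examples. The one at 51417991 on chromosome 11 had 38 and 89 reads in the U1 AMO pair, 1 and 3 in the pair with scrambled AMO and none in the untreated pair. The bound of 12 readable bases was met by 1326 A-rich positions and by 99 of the class set against them. Neither the T-rich windows nor the rarity is therefore a finding about that class. Pooled over libraries, that class had the higher mean, 223.2 reads per position against 37.2 for A-rich positions.

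The libraries held 15413148 and 57217428 reads outside chromosome M in the U1 AMO pair, 26415700 and 61726804 in the pair with scrambled AMO and 38331615 and 60261221 in the untreated pair. They listed between 497402 and 1187167 positions each, fewest in untreated replicate 2 despite its depth. Read names in the files showed that replicate 1 of both AMOs shared a run and lane and replicate 2 of both shared another run, while each untreated library had a run of its own. Values are therefore also given within runs. No molecular identifiers are described, so a read is not always a separate molecule, and intervals cover counting error only.

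A-rich positions were read less deeply and were more often seen by a single read than positions of value 0 to 2, in all 6 libraries. Their mean was 9.78 and 17.1 reads per listed position in the U1 AMO pair, 13.1 and 21.0 in the pair with scrambled AMO and 20.6 and 48.7 in the untreated pair. Positions of value 0 to 2 had 37.7 and 89.6 in the U1 AMO pair, 58.3 and 111.5 in the pair with scrambled AMO and 87.3 and 194.4 in the untreated pair. Within a library the A-rich mean was always the lower, by 2.16 on the log2 scale on average, which puts positions of value 0 to 2 at 4.48 times as many reads, from 3.86 to 5.31 times over the libraries. An exact two-sided sign-flip permutation test over the 6 libraries gave p = 0.03125, the smallest p it allows, and an adjusted p of 0.03125 over the 5 measures compared between these classes.

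The share of A-rich positions with a single read was 57.2% and 52.4% in the U1 AMO pair, 56.6% and 52.4% in the pair with scrambled AMO and 45.6% and 32.3% in the untreated pair. At value 0 to 2 the share was 41.5% and 36.2% in the U1 AMO pair, 39.6% and 35.1% in the pair with scrambled AMO and 29.8% and 12.4% in the untreated pair. The 95% Wilson intervals of these shares reached at most 0.30 percentage points to either side. The means were 49.4% ± 9.35 for A-rich positions and 32.4% ± 10.6 for value 0 to 2 (SD, n = 6 libraries). The difference lay between 15.7 and 19.9 percentage points in every library, more than the SD between libraries of either class (exact sign-flip permutation test, p = 0.03125, adjusted p = 0.03125).

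**Figure D1:**
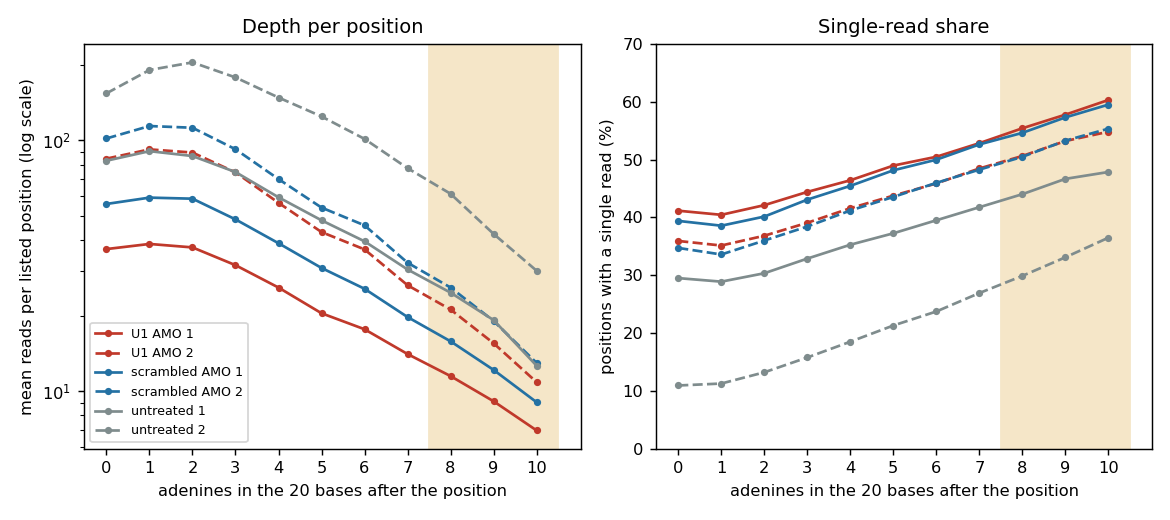
Mean reads per listed position (left, log scale) and percent of listed positions with a single read (right) in each library, against the number of As in the 20 bases after the position; the shaded band marks values 8 to 10. In every library the mean fell and the single-read share rose from value 2 to value 10, and value 10 had the lowest mean and the highest single-read share.

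The change along the scale was gradual, with no step at the bound of the class. Pooled over libraries, positions had 61.2 reads each at value 7, just outside, and 47.2 at value 8, just inside, then 33.3 at value 9 and 22.4 at value 10. The highest pooled mean was 232.3 reads at value 1, and value 0 had 202.0. The pooled single-read share was 48.2% at value 7, 50.1% at value 8, 52.2% at value 9 and 53.7% at value 10, beside 36.5% at value 0. Reads among A-rich positions were concentrated: the top 1%, 4717 positions, held 76.8% of their reads, against 74.9% for the top 1% at value 0 to 2. A 6-library mean of 10 CPM or more was reached by 997 A-rich positions, or 0.211%, against 3714 of value 0 to 2, or 1.23%.

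The signal hexamers differed as well. Every listed position comes with 1 of 36 hexamers that ends before the counted window, so no base is shared between the hexamer and the window. AATAAA and ATTAAA together were the hexamer of 57.7% ± 3.90 of A-rich positions and 66.1% ± 2.54 of positions of value 0 to 2 in a library (SD, n = 6), lower in A-rich positions in 6 of 6 libraries (exact sign-flip permutation test, p = 0.03125, adjusted p = 0.03125). In the pool AATAAA had 39.1% of A-rich positions and 41.4% of value 0 to 2, and ATTAAA had 11.5% and 17.5%. Thus most of that gap lay in ATTAAA. By pooled reads the order for AATAAA turned, with 70.6% of the reads at A-rich positions and 69.1% of those at value 0 to 2, while ATTAAA stayed lower with 14.8% and 19.4%. The turn was not present in every library, since AATAAA held 70.61% of A-rich reads and 70.81% of reads at value 0 to 2 in U1 AMO replicate 1, and 69.99% and 70.37% in scrambled AMO replicate 1.

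AAAAAA, the variant made of A alone, made up 5.87% and 5.61% of A-rich positions in the U1 AMO pair, 6.26% and 6.17% in the pair with scrambled AMO and 3.58% and 10.4% in the untreated pair. The lowest and the highest library were thus the untreated pair. The mean was 6.31% ± 2.22 in A-rich positions and 2.01% ± 0.576 at value 0 to 2 (SD, n = 6), higher in A-rich positions in 6 of 6 libraries (exact sign-flip permutation test, p = 0.03125, adjusted p = 0.03125). The ratio of the pooled shares was 2.58. AAGAAA, with 5.14% and 3.13%, and TAAAAA, with 4.22% and 2.64%, were likewise commoner in the A-rich pool. Of the 36 hexamers, 14 had a higher share among A-rich positions in all 6 libraries. At least 4 As are in 11 of these 14 and in 30 of all 36, and at least 5 As in 8 of the 14 and 15 of the 36. AATAAA was lower in all 6 libraries, and so were ATTAAA, the rarer variant AGTAAA and the likewise rare AATACA, and the other 18 were mixed. Neighbouring positions of 1 site share their bases, so positions are not independent and the tests run over libraries.

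The lower depth was also present among positions with the same hexamer. With AATAAA, A-rich positions averaged 34.3 ± 22.0 reads and positions of value 0 to 2 averaged 137.7 ± 72.6 reads, and single-read shares were 43.3% ± 10.1 and 26.9% ± 9.65 (SD, n = 6 libraries). With ATTAAA the means were 26.2 ± 19.0 reads for A-rich positions and 106.0 ± 61.8 reads for value 0 to 2. With AAAAAA both classes were thin, at 4.07 ± 0.924 reads for A-rich positions and 7.32 ± 2.70 reads for value 0 to 2. Each of these differences had the same direction in 6 of 6 libraries (exact sign-flip permutation test, p = 0.03125, adjusted p = 0.03125 over 6 comparisons).

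By the median, the hexamer sat closer to A-rich positions. The deposited distance counts from the first base of the hexamer to the position, both included. Its median was 21 nt for A-rich positions and 23 nt for value 0 to 2. Hexamer distances of single positions are given by the same count. In the classical range of 10 to 30 nt lay 73.8% ± 1.54 of A-rich positions and 82.7% ± 0.908 of value 0 to 2 in a library (SD, n = 6), lower in A-rich positions in 6 of 6 libraries (exact sign-flip permutation test, p = 0.03125). This comparison was added after the data were seen. Distances under 10 nt made up 7.79% to 13.1% of A-rich positions in a library, against 2.39% to 3.69% at value 0 to 2. Distances over 30 nt were also commoner among A-rich positions in each library, at 14.8% to 16.9% against 13.2% to 15.3%. AAAAAA had the shortest spacing of the 3 hexamers examined, with a median of 8 nt in A-rich positions and 14 nt at value 0 to 2, and 56.8% and 38.1% of its positions under 10 nt. For AATAAA the medians were 21 nt and 23 nt, with 5.72% of A-rich positions and 1.34% of value 0 to 2 under 10 nt.

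**Figure D2:**
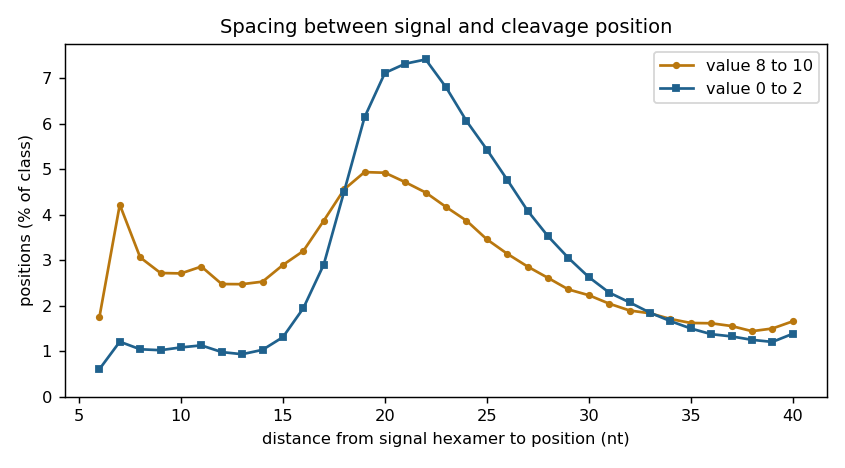
Percent of pooled positions of each class (A-rich, value 8 to 10, and value 0 to 2) against the distance in nt from the deposited hexamer to the position. Both classes peak near 20 nt, and A-rich positions have a second, smaller rise under 10 nt.

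Many A-rich positions stood by themselves. When positions on one strand with gaps of up to 24 nt were merged into clusters, 37.5% of A-rich positions had no neighbour in any library, against 15.3% at value 0 to 2. Within a library, the share listed alone in its cluster was 23.99% ± 5.24 for A-rich positions and 7.10% ± 1.87 for value 0 to 2 (SD, n = 6; exact sign-flip permutation test, p = 0.03125; also added after the data were seen). The lone A-rich positions were shallow, with 2.38 reads each and 2.398% of the reads of the class. Lone positions of value 0 to 2 were as shallow, with 2.19 reads each and 0.150% of the reads of their class. A further 68498 A-rich positions, or 14.5%, were the most-read position of a cluster of several and held 53.6% of the reads at A-rich positions. The rest were minor positions beside a stronger one. Of these minor positions 58.4% lay upstream of the stronger one, against 27.9% at value 0 to 2. For 59.7% the stronger one was itself A-rich. Among minor positions of value 0 to 2, the stronger one also had a value of 0 to 2 for 49.0%. The median distance to the stronger one was 6 nt for A-rich positions and 4 nt for value 0 to 2. Such windows overlap, so like values are partly built in.

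A-rich positions recurred less often between libraries. In a given library, 72.3% and 57.4% of them in the U1 AMO pair, 68.3% and 61.6% in the pair with scrambled AMO and 69.7% and 65.6% in the untreated pair were listed in at least 1 of the other 5 libraries. At value 0 to 2 the shares were 83.6% and 71.3% in the U1 AMO pair, 83.3% and 77.0% in the pair with scrambled AMO and 82.8% and 87.6% in the untreated pair. The difference averaged 15.1 percentage points, lower for A-rich positions in 6 of 6 libraries (exact sign-flip permutation test, p = 0.03125, adjusted p = 0.03125). A position shared between libraries counts in the value of each. The 6 differences are therefore not independent, here or at equal read number below, which the test does not take into account. In the pool, 65.2% of A-rich positions were in a single library and 24972, or 5.29%, in all 6, against 50.1% and 41570, or 13.8%, at value 0 to 2.

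At equal read number the gap was smaller. Among positions with 1 read in a library, 44.8% ± 9.22 of A-rich positions and 56.3% ± 8.41 of value 0 to 2 were listed elsewhere (SD, n = 6). At 2 to 3 reads the shares were 72.9% and 79.8%. Both gaps had one direction in 6 of 6 libraries but did not pass the adjustment (exact sign-flip permutation test, p = 0.03125, adjusted p = 0.0938 over 6 bins). That p is the smallest the test allows, so no bin could pass unless most of the 6 bins reached it. The bins of many reads, where nearly all positions of both classes recurred, had little room to do so. The adjusted p therefore does not show that these gaps are absent. At 4 to 9 reads the shares were 92.8% and 94.9%, lower for A-rich positions in 5 of 6 libraries (exact permutation p = 0.0938, adjusted p = 0.188). At 10 to 29 reads they were 98.4% and 99.1% (exact permutation p = 0.375, adjusted p = 0.375). From 30 reads up, both classes were listed elsewhere in over 99% of cases.

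**Figure D3:**
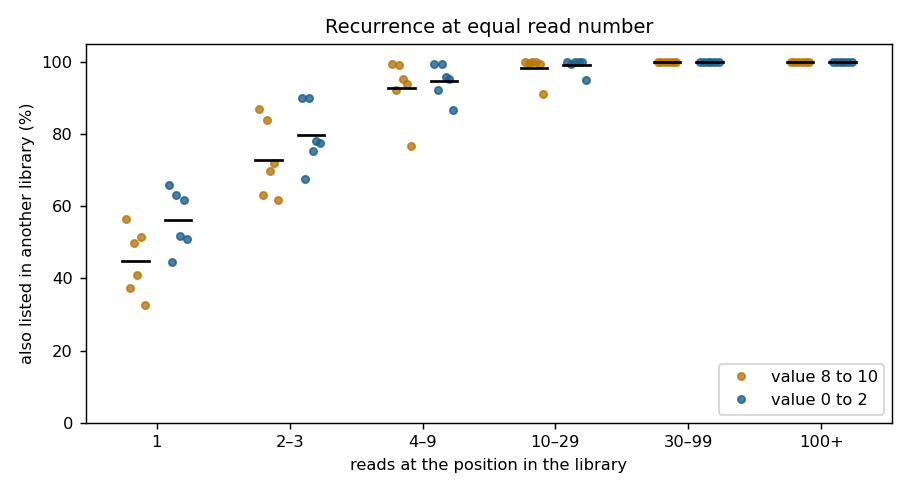
Percent of the positions of each class that were also listed in another library, by the number of reads at the position in the library examined; points are libraries and bars are means. The classes are apart at 1 read, with means of 44.8% for A-rich positions and 56.3% for value 0 to 2, and at 10 to 29 reads the means are 98.4% and 99.1%, with untreated replicate 2 lowest at 91.1% and 94.9%.

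Some A-rich positions were among the most-read positions of these cells. The 5 with the highest mean CPM had means of 893.6, 888.1, 616.9, 414.8 and 412.0 CPM over the 6 libraries. The first of them ranked 40th among all positions, where the leading position, of value 1, had 6255 CPM. That first A-rich position, at 70791357 on the minus strand of chromosome 11 with AATAAA 18 nt upstream, stood at 385.6 and 1052 CPM in the U1 AMO pair, 458.1 and 1223 CPM in the pair with scrambled AMO and 776.9 and 1466 CPM in the untreated pair. Replicate 1 was the lower in each group, and the groups overlapped. The second, at 86474493 on the minus strand of chromosome 6 with ATTAAA 20 nt upstream, stood at 851.0 and 826.9 CPM in the U1 AMO pair, 584.3 and 745.1 CPM in the pair with scrambled AMO and 811.3 and 1510 CPM in the untreated pair. It is the leading position of the cluster that holds the value 10 window of chromosome 6 shown above, which lies 38 nt upstream of it. The U1 AMO libraries were above both scrambled AMO libraries at this position but overlapped with the untreated ones. The other 3 lay at 33054927 on chromosome 11, 87382462 on chromosome 7 and 47823693 on chromosome 17, all on the minus strand, each with AATAAA. Each of the 5 led its cluster, and none was called between the U1 AMO and the scrambled AMO in either fit described below.

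The U1 AMO did not shift the A-rich class as a whole by more than the spread between libraries. A-rich positions were 16.3% and 18.1% of listed positions in the U1 AMO pair, 18.2% and 18.0% in the pair with scrambled AMO and 16% and 18.7% in the untreated pair. The U1 AMO minus scrambled AMO difference was -1.90 percentage points in the run of replicate 1 and 0.11 in that of replicate 2 (exact two-sided permutation test, p = 0.667, with 0.33 the smallest that 2 against 2 allow). Their share of reads was 7.01% and 6.43% in the U1 AMO pair, 7.22% and 6.32% in the pair with scrambled AMO and 6.35% and 7.52% in the untreated pair. Here the difference was -0.21 and 0.11 percentage points within runs (exact permutation p = 1.0). The 95% Wilson intervals reached at most 0.11 percentage points to either side for shares of positions and 0.013 for shares of reads. The response of the classes was compared through the log2 ratio of reads at A-rich positions to reads at value 0 to 2, which was -2.01 ± 0.10 in the U1 AMO pair, -1.98 ± 0.16 in the pair with scrambled AMO and -1.83 ± 0.33 in the untreated pair (SD, n = 2 each; U1 AMO against scrambled AMO, exact permutation p = 1.0). Within runs it differed by -0.07 and 0.01.

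**Figure D4:**
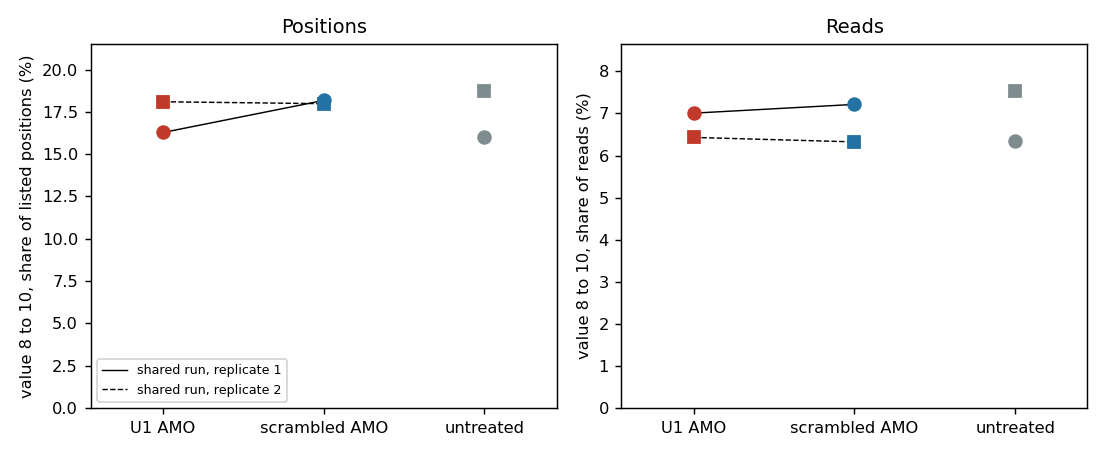
Share of listed positions (left) and of reads (right) at A-rich positions, in percent, in each library; lines join the U1 AMO and scrambled AMO libraries that shared a run. Within runs the lines slope in opposite directions, and the untreated libraries span 16% to 18.7% of positions and 6.35% to 7.52% of reads.

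Distinct positions were counted at equal depth, with each AMO library thinned to 15413148 reads. The U1 AMO libraries then listed 110472 and 102357 A-rich positions, against 106849 and 85560 in the scrambled AMO libraries, ratios of 1.03 in the run of replicate 1 and 1.20 in that of replicate 2. At value 0 to 2 the ratios were 1.14 and 1.17, and over all positions 1.10 and 1.18. So the A-rich class was below the other in one run and above it in the other. Positions listed in both U1 AMO libraries and in no other library numbered 8021 at A-rich positions, or 1.70%, against 8471, or 2.82%, at value 0 to 2 and 2.30% of all positions. The same count for the scrambled AMO gave 1.19% of A-rich positions, 1.21% of value 0 to 2 and 1.20% of all. These shares depend on depth and have no test.

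Single positions were tested with the quasi-likelihood test of edgeR on counts, with p-values adjusted by Benjamini-Hochberg over all positions tested. With all 6 libraries in one fit, no position was called in either direction at an adjusted p under 0.05 (0 of 225350, 0%, and 0 of 27279 A-rich positions). At an unadjusted p under 0.05 there were 10137 positions, 4.50% of those tested. Of these, 1007 were A-rich, or 3.69% of A-rich positions tested. DESeq2 called 2786 rises, 1.24% of positions, of which 264 were A-rich, or 0.968% of A-rich positions tested. The filter on low counts passed 5.78% of A-rich positions, holding 91.2% of their reads, and 14.9% of value 0 to 2. When only the 4 AMO libraries were fitted, with run as a factor, 13412 of 190615 positions rose in the U1 AMO pair, 7.04%, and 1900 fell, 0.997%. Among the 22257 A-rich positions tested there, 1303 rose, or 5.85%, and 192 fell, or 0.863%. At value 0 to 2, 2603 of 39067 rose, or 6.66%, and 354 fell, or 0.906%. The A-rich share of rises was below that of all positions, and this gap was not tested. This fit has 1 residual degree of freedom per position, and the fit of all 6 libraries made none of its calls.

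**Figure D5:**
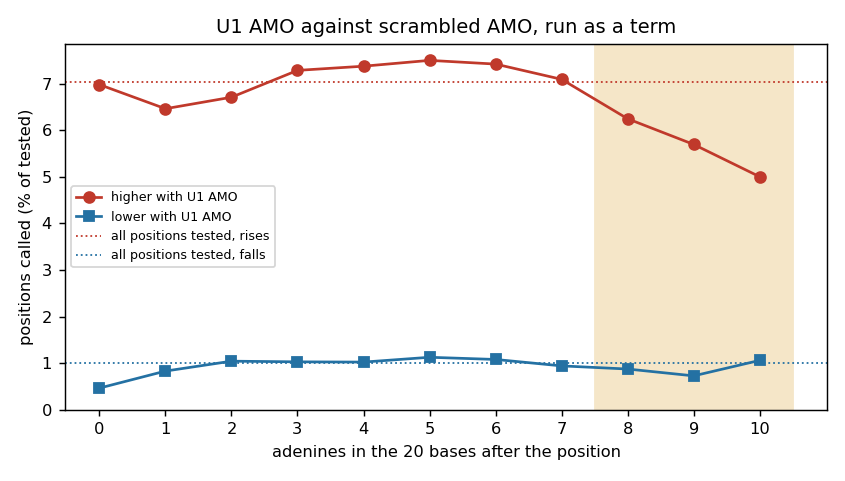
Percent of tested positions called higher (circles) or lower (squares) for U1 AMO over scrambled AMO in the edgeR fit with run as a term, by the number of As in the 20 bases after the position; dotted lines mark all positions tested, 7.04% and 0.997%, and the band marks values 8 to 10. The share of rises is 6.25% at value 8, 5.69% at value 9 and 5.001% at value 10.

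By value, the share of rises was 7.09% at value 7, 6.25% at value 8, 5.69% at value 9 and 5.001% at value 10, and it was highest, 7.499%, at value 5. Rises were less frequent among A-rich positions than at value 0 to 2 at each of the 5 levels examined, from positions under 0.5 CPM over the 4 AMO libraries, with 6.73% of A-rich positions and 8.62% of value 0 to 2, to those of 20 CPM or more, with 4.26% and 6.17%. Falls had the opposite order at 4 of the 5 levels, with 0.578%, 1.19%, 4.09% and 5.11% of A-rich positions from 0.5 CPM up, against 0.139%, 0.974%, 2.77% and 3.82% at value 0 to 2. Under 0.5 CPM falls were 0.183% of A-rich positions, 0.265% of value 0 to 2 and 0.195% of all positions tested. From 0.5 CPM up, falls over all positions were 0.336%, 1.08%, 3.66% and 5.23%. The A-rich share of falls was thus above that of all positions from 0.5 to 20 CPM and below it at the lowest and highest levels. Rises over all positions were 9.01%, 6.34%, 5.61%, 5.19% and 5.18% from the lowest level to the highest, with the A-rich share below at each. None of these gaps was tested. In clusters, a test added after the data were seen, 1112 of 12317 clusters led by an A-rich position rose, or 9.03%, against 1296 of 8514 led by value 0 to 2, or 15.2%, and 13.0% of all clusters. Falls were 146, or 1.19%, among those led by an A-rich position, 237, or 2.78%, among those led by value 0 to 2, and 2.05% of all clusters. The gap between the classes was not tested.

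The A-rich positions that rose were chosen by this contrast, and a position rare in the controls passes the filter on low counts only through the U1 AMO libraries, so their levels are given as a description. The median was 0.973 and 0.664 CPM in the U1 AMO pair, 0.0379 and 0.0324 CPM with the scrambled AMO and 0 in both untreated libraries. Of the 1303, 661 had at most 3 reads over both scrambled AMO libraries and 369 had none, against 1036 and 529 of the 2603 rises at value 0 to 2. The A-rich rises lay in 916 clusters, so many are neighbours at one site. AATAAA was the hexamer of 66.7% of them and AAAAAA of 0.844%, beside 59.9% and 3.29% of all A-rich positions tested.

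A 4-library mean of 1 CPM or more was reached by 333 of the A-rich rises. The 5 with the highest fold changes are described here; ranking by fold selects positions with few or no control reads, which passed the filter through the U1 AMO libraries alone, so their p-values are no independent support. The position at 22891228 on the plus strand of chromosome 11, of value 10 with AATAAA 24 nt upstream, had 161 and 357 reads with the U1 AMO and none in the scrambled AMO and untreated libraries. That is at least 209.5-fold higher in CPM, taking a floor of 3 reads over the scrambled AMO group (edgeR with run, adjusted p = 4.48e-34; with all 6 libraries, adjusted p = 0.0537). The position at 88252683 on the minus strand of chromosome 1, of value 8 with ATTAAA 19 nt upstream, had 342 and 1354 reads in the U1 AMO pair, 0 and 1 in the pair with scrambled AMO and 0 and 1 in the untreated pair. Its ratio over the pooled scrambled AMO libraries was 2058, with a 95% counting interval of 368.9 to 81343 (edgeR with run, adjusted p = 5.03e-46; with all 6 libraries, adjusted p = 0.0537). It is a neighbour, 1 nt away, of a stronger position of value 8.

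The other 3 had no read in either scrambled AMO library and none in untreated cells. At 17556085 on the plus strand of chromosome 12, of value 9, there were 98 and 279 reads in the U1 AMO pair, at least 153-fold higher. At 52238553 on the minus strand of chromosome 7, of value 10 with GATAAA, there were 88 and 284, at least 150.5-fold higher. At 20887244 on the minus strand of chromosome 2, of value 8 with ATTAAA, there were 95 and 224, at least 129-fold higher. All 5 rises had adjusted p-values between 0.0537 and 0.0588 in the edgeR fit of all 6 libraries, so none was called there. As these 5 were picked by fold change, these p-values are no independent support either.

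Of the 146 A-rich falls of that level, the 5 with the lowest fold changes had most of their scrambled AMO reads in replicate 2. At 88182532 on the plus strand of chromosome 9, of value 8, there were 2 and 6 reads in the U1 AMO pair, 7 and 329 in the pair with scrambled AMO and 13 and 1401 in the untreated pair. At 10141366 on the plus strand of chromosome 17, of value 10, there were 1 and 14 reads in the U1 AMO pair, 6 and 458 in the pair with scrambled AMO and 2 and 1126 in the untreated pair. In both, scrambled AMO replicate 2 and untreated replicate 2 stood far above every other library, and the 2 AMO libraries of replicate 1 had 7 reads or fewer. At 13103772 on chromosome 7, of value 9, there were 0 and 45 reads in the U1 AMO pair, 4 and 857 in the pair with scrambled AMO and 13 and 656 in the untreated pair. At 104955162 on chromosome 13, of value 8, there were 0 and 48 reads in the U1 AMO pair, 3 and 247 in the pair with scrambled AMO and 201 and 26 in the untreated pair. The highest library there was untreated replicate 1, at 5.24 CPM. At 65310157 on chromosome 3, of value 10, there were 8 and 91 reads in the U1 AMO pair, 38 and 384 in the pair with scrambled AMO and 33 and 421 in the untreated pair. There the U1 AMO library was the lower in both runs, at 0.519 CPM against 1.44 CPM for replicate 1 and 1.59 CPM against 6.22 CPM for replicate 2. The run-term log2 fold changes of the 5 were -5.12 to -1.87, and in the fit of all 6 libraries their adjusted p was 1.0 in edgeR.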

How the data were processed

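Per the submitters' processing notes, reads were processed with cutadapt and Bowtie on mm9; the sources used here do not give versions, the caller of positions or its filters. For each library the authors deposited a list of stranded positions with whole-number read counts, a hexamer, its distance in nt (6 to 40) and a value of 0 to 10. The counts are not normalized. The protocol in the labels names poly(A) selection, RNase T1, reverse transcription, circularisation and PCR. The files name no genes, and none were assigned.

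The members, lists and tests were chosen with earlier results of these data known. Libraries were grouped by their titles. Reads per position were compared between classes within libraries by exact sign-flip permutation (smallest p with 6 libraries 0.03125) and between groups by exact permutation. CPM was computed from the deposited counts outside chromosome M. Counts per position were tested with edgeR 4.0.16 (R 4.3.3, TMM, filterByExpr, 3 groups, adjusted p under 0.05), with DESeq2 1.42.0, and with run as a term in the 4 AMO libraries. Scripts were tested on simulated data (Python 3.11.15, pandas 2.3.3, numpy 2.4.6, scipy 1.17.1). Positions named were the 5 A-rich ones of highest mean CPM and the 5 with the highest and the 5 with the lowest log2 fold change among A-rich calls of the run-term fit that averaged 1 CPM or more.

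Replicate numbers pair the AMO libraries: same-numbered libraries shared a run, per the read names in the files. Deviations from group means correlated at r = 0.756 between U1 AMO and scrambled AMO libraries of one number, across 75974 positions, which are not independent. Against untreated libraries, with other runs, r was -0.101 and -0.0724. Alternatives were other scalings, no filter, a minimum of 2 reads, chromosome M kept, clusters in place of positions, and each library left out.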

Additional observations from a re-analysis of the deposited data

Results flagged for a closer look

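A-rich positions on chromosome M lie outside the comparisons above, and their reads exceeded the level of both untreated libraries. They held 1.34% and 0.760% of all reads with the U1 AMO (mean 1.05%), 0.956% and 0.543% with the scrambled AMO (mean 0.749%) and 0.382% and 0.217% in untreated cells (mean 0.299%). The U1 AMO was above the scrambled AMO in both runs, and replicate 1 was above replicate 2 in every group. Between 59.6% and 63.6% of the chromosome M reads of a library lay at A-rich positions.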

How the results depend on the processing

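The differences between A-rich positions and those of value 0 to 2 kept their direction and passed the test at equal depth, with values 9 and 10 alone and against values 3 to 7. A minimum of 2 reads per position was applied to the hexamer shares and recurrence, and leaving out AAAAAA to the single-read share, mean reads and recurrence, with the same outcome. Leaving out each library in turn gave 16.4 to 17.2 percentage points for the single-read share, -2.21 to -2.11 (log2) for mean reads, -9.05 to -7.98 points for AATAAA and ATTAAA together, 3.69 to 4.70 points for AAAAAA and -16.2 to -14.5 points for recurrence. With 5 libraries the exact permutation test cannot go below p = 0.0625, so no such difference passed it. Between the U1 AMO and the scrambled AMO, the same gave -1.80 to 0.017 points for the share of positions, -0.496 to 0.395 points for the share of reads and -0.144 to 0.0845 for the log2 ratio of the classes, so these have no stable sign. With chromosome M kept in, the share of reads differed by 0.221 points and the ratio by 0.0297; the cause of the change of sign was not tested. With the replicate block (pairing by run) the mean differences stayed at -0.891 points, -0.051 points and -0.03, with an exact permutation p of 1.0.

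Calls of single positions depended on the fit. Against 0 positions and 0 A-rich positions with all 6 libraries, the replicate block in the 4 AMO libraries called 15312 and 1495, these 4 libraries without it 2322 and 227, DESeq2 2786 and 264, no filter on low counts 2866 and 290, and clusters in place of positions 453 and 40. In the 4 AMO libraries without the block, 1.02% of A-rich positions and 1.22% of all positions tested rose. In DESeq2 0.968% and 1.24% rose. Without the filter 0.0598% and 0.122% rose, and 0.0017% and 0.00051% fell. Of clusters, 0.271% of those led by an A-rich position and 0.565% of all rose. These gaps were not tested. DESeq2 gave no adjusted p for 13108 positions. RLE factors and the block in all 6 libraries called 0. A-rich features tested numbered 27279 with all 6 libraries, 22257 in the 4 AMO libraries, 471627 without the filter and 14765 as clusters. The counts therefore cannot be compared directly with each other. Leaving out a library gave 0 to 4474 positions and 0 to 453 A-rich positions: 453 A-rich calls without the first untreated library and 391 without the second, 30 without the first U1 AMO library and 47 without the second. In each of these a group of 2 is left with a lone library, assumed to vary like the others. Where such a fit made calls, the called share was lower among A-rich positions than among all positions tested. That difference was not tested. The block in the 4 libraries called 1469 A-rich positions with RLE factors, 1391 with library size alone and 1258 A-rich-led clusters, alternatives added after the data were seen. With RLE factors 5.77% of A-rich positions rose and 0.827% fell, beside 6.89% and 0.968% of all positions tested. With library size alone 5.63% of A-rich positions rose and 0.620% fell, beside 6.78% and 0.749% of all. The shares for clusters are given above. The filter on low counts passed 5.78% of A-rich positions, which held 91.2% of their reads; the rest were not tested.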

Other observations

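A-rich positions were not evenly spread over the chromosomes. They made up 18.3% of the pooled positions on chromosome 7 and 18.4% on chromosome 11, the lowest shares, and 21.7% on chromosomes 12 and 3, the highest among autosomes. Chromosome X stood at 24.2%, 21222 of 87591 positions. Chromosome Y had 25.4%, 317 of 1250 positions. These shares are over positions that cluster at shared sites and have no test.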
